A study of Sus scrofa with 15 samples.

Results

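ITGA4+BMPR1B- cells (A4) and ITGA4-BMPR1B+ cells (B1B) are the 2 chondrocyte populations of adult pig knee cartilage that carried only 1 of the 2 surface proteins used for sorting. They were compared here by their 3 libraries each, 6 of the 15 libraries of the series, selected by the sort label and matched by animal (pigs 2, 5 and 6). The same 3 pigs also gave ITGA4+BMPR1B+ (DP) and ITGA4-BMPR1B- (DN) libraries, which entered the fit, and 3 further libraries held CD146+ synovial cells. All cells were primary cells with no treatment described, taken from farm-supplied legs and released by collagenase and dispase over hours before sorting. Age beyond adult and breed were not given in the sources used here. The study asked whether ITGA4 marks chondrocytes of articular cartilage with distinct molecular features. In A4 against B1B both sort proteins change at once, in opposite directions.

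Articular cartilage is layered. Chondrocytes at the surface secrete lubricin, the product of PRG4, and lie in a matrix poorer in aggrecan, whereas deeper cells build a matrix of type II, IX and XI collagen fibrils filled with aggrecan. ITGA4 pairs with ITGB1 or ITGB7 to bind VCAM1 and an alternatively spliced segment of fibronectin. BMPR1B is a type I receptor for bone morphogenetic proteins and growth differentiation factors, GDF5 among them.

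Each library held a deposited signal with a common total, most of it structural RNA, so levels are given here as messenger-scaled signal. For this, rows of structural and mitochondrially encoded RNA were left out, and the rest were brought to a common scale on which the 12 chondrocyte libraries average 1000000. Differences are log2 changes of signal + 1, A4 minus B1B, which understate the change of low genes. Since the deposited values have no stated correction for gene length, levels are compared between libraries and not between genes. Messenger RNA rows made up 4.17%, 21.0% and 16.8% of the signal in the A4 libraries of pigs 2, 5 and 6, against 2.44%, 19.2% and 14.8% in the B1B libraries, and read depth is unknown. The libraries of pig 2 thus had the lowest messenger share in both populations. Mitochondrially encoded RNA took 25.3 ± 8.70% of the signal in A4, against 10.04 ± 7.11% in B1B (SD, n = 3), a difference that moved with the populations and whose part in the results was not tested.

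The 2 transcripts behind the sort were too low to test. ITGA4 stood at 0.774, 0.633 and 0.0537 in the A4 libraries, against 0.676, 0.829 and 0.415 in the B1B libraries. BMPR1B stood at 0.0428, 0.145 and 0.000879 in A4, against 0.0567, 0.00110 and 0.00627 in B1B. Neither transcript separated the populations, and the labels, which rest on surface protein, could not be checked by them. All 6 libraries held the chondrocyte transcripts ACAN (2086, 1362 and 1803 in A4, against 2462, 3278 and 3248 in B1B) and SOX9 (2789, 1010.5 and 1117 in A4, against 3542, 1510.5 and 1783 in B1B), which encode the main cartilage proteoglycan and a transcription factor of the chondrocyte lineage.

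A4 chondrocytes had more transcript of the lubricant PRG4, the adhesion protein VCAM1, the protease CTSK, the growth factor BMP4 and the ferritin chain FTL, and less of the collagen genes COL2A1, COL9A1 and COL11A1, of SPARC, FN1 and GDF5, and of the opioid precursor PENK. Among 9075 genes tested, 108 were higher in A4 (1.19%) and 76 were lower (0.837%) at an adjusted p under 0.05 (limma, with pig as a block, over the 12 chondrocyte libraries). The A4 and B1B libraries did not overlap for 85 of the 108 and 47 of the 76. Over all genes tested they did not overlap for 525 genes higher in A4 (5.79%) and 632 lower in A4 (6.96%). All 184 called genes differed in the same direction in 3 of 3 pigs, a count that the test itself favours. Over all 9075 genes tested, 1469 were higher and 1871 lower in A4 in 3 of 3 pigs. The log2 changes of the called genes ran from 0.64 to 6.75 above and from 0.59 to 3.46 below B1B in size.

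These calls rest on all 3 pigs and on the shared spread of 12 libraries. Without pig 5 there were 0 calls, without pig 6 there was 1, which was not among the 184, and without pig 2 there were 45, of which 29 were among the 184. There were 0 without the B1B library of pig 5, 9 without that of pig 6, 3 without the A4 library of pig 5 and 27 without that of pig 6. With the 6 A4 and B1B libraries alone no gene was called by limma, although 1068 had an unadjusted p under 0.05, against 1546 in the fit of 12. The split of calls also moved with the scaling, to 31 higher and 0 lower in A4 with values as deposited and to 86 higher and 30 lower with messenger rows brought to a common total. These scalings shifted the median log2 change of the tested genes to 0.22 and 0.13, against -0.03 on the scale used here. In bulk libraries such as these, more cells with a transcript and more transcript per cell cannot be told apart.

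**Figure D1:**
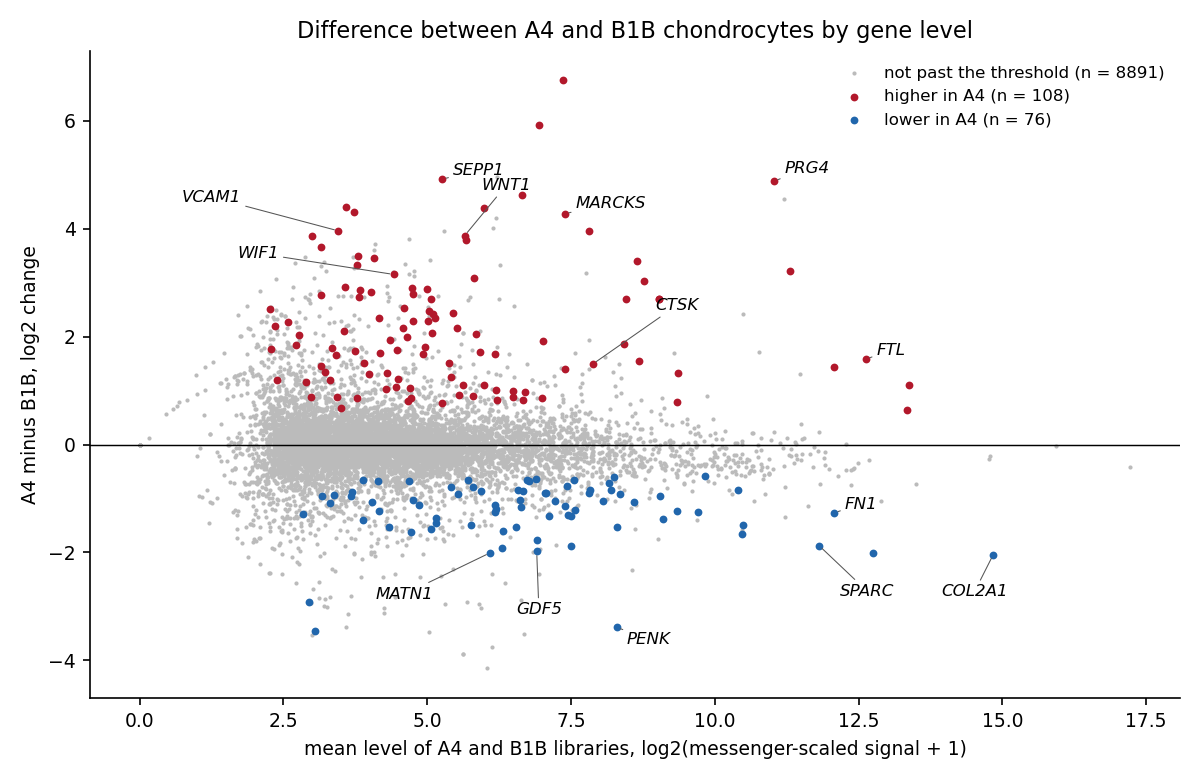
Log2 change of A4 minus B1B for each of 9075 genes (vertical axis) against the mean level of both groups of libraries (horizontal axis, log2 of messenger-scaled signal + 1), with called genes in color. Calls higher in A4 lie mostly at larger changes, whereas calls lower in A4 include some of the highest genes, COL2A1 at -2.04, SPARC at -1.87 and FN1 at -1.27.

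PRG4, which encodes lubricin, was at 4976, 3215 and 3116 in the A4 libraries of pigs 2, 5 and 6, against 1123, 21.2 and 77.6 in the B1B libraries. The lowest A4 library was thus above the highest B1B library, and B1B was spread widely, with pig 2 far above the others. The log2 change was 4.88 (SE 0.817, limma adjusted p = 0.0332). VCAM1, a cell adhesion protein that ITGA4-containing integrins bind, was at 19.8, 28.6 and 10.7 in A4, against 0.182, 0.456 and 0.110 in B1B. The log2 difference, A4 minus B1B, was 3.96 with an SE of 0.590 (adjusted p = 0.0256 by limma). All 3 B1B libraries were below 1. VCAM1 passed the filter on low values, which asked for more than 5 in at least 3 libraries, through its A4 libraries alone, so it was tested only because it was high in A4, and its p is given as a description. This held for 2 of the 108 genes higher in A4, VCAM1 and ANPEP, and for 0 of the 76 lower genes with B1B in the place of A4.

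Of the 12 tested rows of the superficial zone list, 4 rose, VCAM1 among them, and 0 fell, with a median log2 change of 1.53 against -0.03 over all genes tested. The other 2 calls were both rows of ABI3BP, an extracellular matrix protein. The more abundant one was at 500.4, 850.1 and 943 in A4, against 189, 47.6 and 78.7 in B1B (log2 change 3.03, limma adjusted p = 0.0341), and the second row, 2.52 on the same scale, may share reads with it. CLU, a secreted chaperone of surface chondrocytes, was at 1933, 2646 and 8311 in A4, against 1399, 1016 and 1949.7 in B1B, and did not pass (log2 change 1.31, limma adjusted p = 0.0678). THBS4 had a log2 change of 1.75 (adjusted p = 0.0829) and CILP, which marks intermediate cartilage layers, of -0.42 (adjusted p = 0.536). The calls of the list thus came from PRG4, ABI3BP and VCAM1, the last of which was tested only because it was high in A4.

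**Figure D2:**
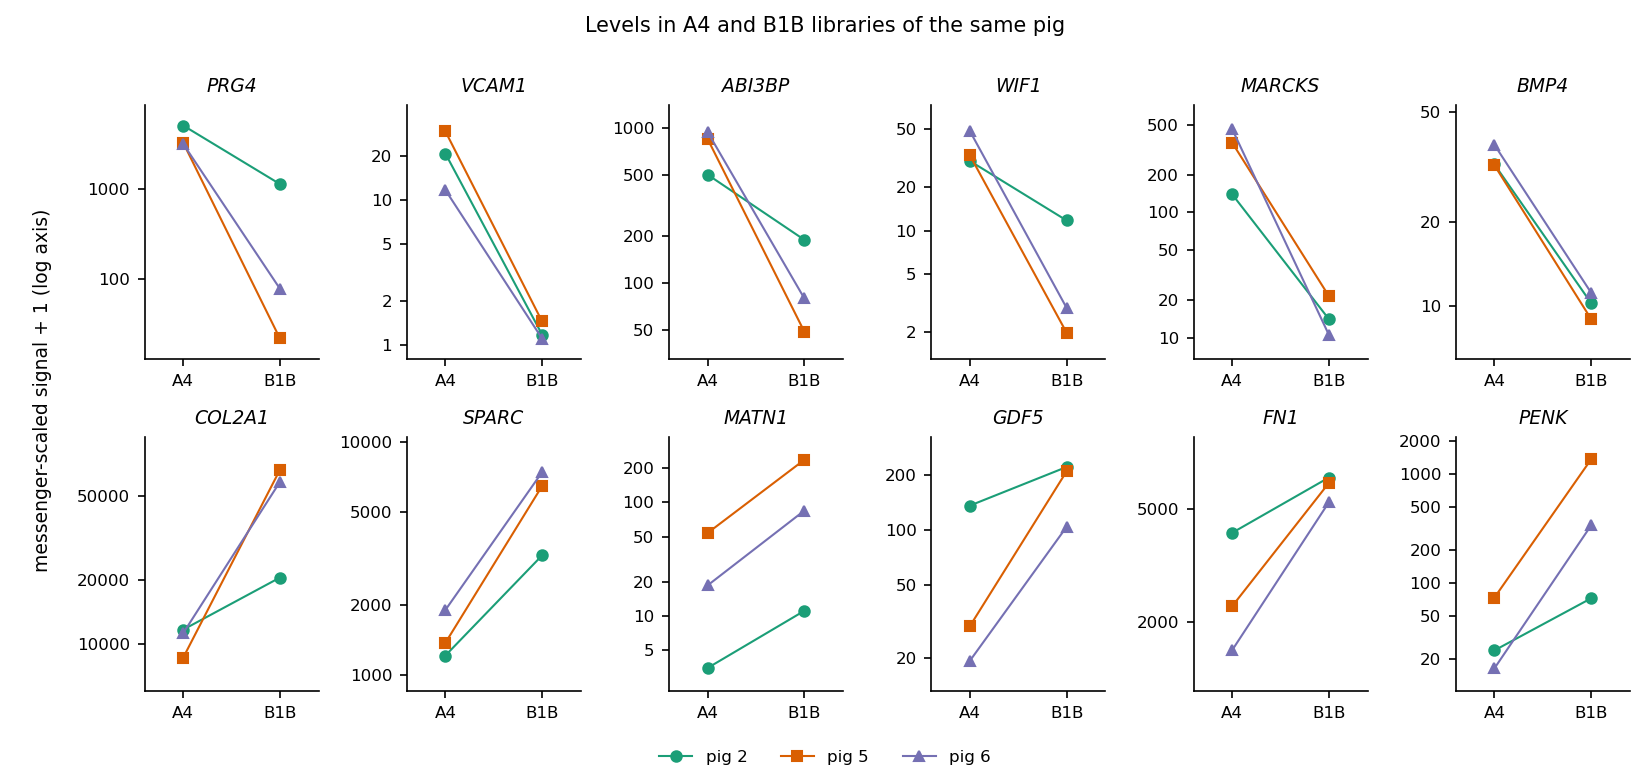
Messenger-scaled signal + 1 (log axis, scaled for each gene) of 12 genes in the A4 (left) and B1B (right) library of each pig, joined by a line per animal, with the more abundant row shown where a gene has 2. The upper 6 genes were higher and the lower 6 lower in A4 in 3 of 3 pigs. For every gene shown except VCAM1 the log2 difference was smallest in pig 2.

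Genes of cartilage collagens and of glycoproteins bound to them mostly went the other way. The depth of the sorted cells in the cartilage was not measured here. COL2A1, the chain of type II collagen, was at 11687, 8618 and 11242 in A4, against 20555, 66100.0 and 58008 in B1B. The log2 difference, A4 minus B1B, was -2.04 with an SE of 0.342 (adjusted p = 0.0332 by limma). The A4 libraries lay close together, and B1B was higher in pigs 5 and 6 than in pig 2. Of the 16 tested rows for cartilage collagens and glycoproteins bound to them, 6 fell in A4 and 1 rose, with a median of -0.98.

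The matrilins, adaptor proteins between collagen fibrils and other matrix components, made up 3 of these falls. MATN1 was at 2.45, 52.8 and 17.5 in A4, against 10.02, 237 and 83.7 in B1B (log2 change -2.01, limma adjusted p = 0.0214). The 3 pigs spanned a wide range, so the ranges overlapped although every pig was lower in A4. MATN3 had a log2 change of -1.53 and MATN2 of -0.68 (limma adjusted p = 0.0305 and 0.0433). COL9A1, a chain of the type IX collagen that coats the fibrils, was at 46.01, 34.4 and 31.2 in A4, against 70.2, 137 and 153 in B1B (log2 change -1.61, adjusted p = 0.0489). COL11A1, a chain of the type XI collagen at the fibril core, had 124, 94.6 and 87.1 in A4, against 191, 262 and 320.2 in B1B (log2 change -1.32, adjusted p = 0.0392). Neither pair of groups overlapped.

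OGN, osteoglycin or mimecan, a small leucine-rich proteoglycan, was the exception in that list. It was at 39.2, 75.7 and 49.7 in A4, against 8.78, 2.93 and 9.10 in B1B, with a log2 change of 2.88 (limma adjusted p = 0.0312). The type VI collagen chains that form the pericellular mesh had log2 changes of -0.42 for COL6A1, -0.42 for COL6A2 and -0.24 for COL6A3, and none passed (adjusted p 0.238, 0.264 and 0.383). COMP, which bridges collagen fibrils, had a log2 change of -0.75 (adjusted p = 0.206).

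Of 16 tested rows for the aggrecan network and small leucine-rich proteoglycans, 2 fell in A4 and 0 rose (median -0.27). HAPLN1, the link protein that fixes aggrecan to hyaluronan, was at 908, 1004 and 968 in A4, against 1369, 1786 and 2116 in B1B (log2 change -0.85, limma adjusted p = 0.0459). OMD, osteomodulin, had 54.9, 83.03 and 85.9 in A4, against 102, 241 and 260.5 in B1B (log2 change -1.33, adjusted p = 0.0395). ACAN, given above, was lower in A4 in 3 of 3 pigs, with a log2 change of -0.78 that did not pass (adjusted p = 0.0746). Median changes of the aggrecan network list and of the chondrocyte regulator list shrank or turned with values as deposited, to 0.08 and -0.12, on a scale where the median gene stood at 0.22.

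SPARC, osteonectin, a collagen-binding glycoprotein, had 2 rows in the table. The more abundant one was at 1211, 1373 and 1899 in A4, against 3253, 6451 and 7396 in B1B (log2 change -1.87, limma adjusted p = 0.0140), and the other had -1.65 on the same scale. The lowest B1B library stood above the highest A4 library. FN1, fibronectin, the matrix ligand of several integrins, was at 4122, 2279 and 1598 in A4, against 6438, 6162 and 5271 in B1B (log2 change -1.27, adjusted p = 0.0351). VCAM1 and FN1, both of which can be ligands of ITGA4-containing integrins, thus had opposite orders between A4 and B1B, which differ in BMPR1B as well. In DP cells, which also carry ITGA4, FN1 was at 6200, 6648 and 3919 and VCAM1 at 3.61, 0.202 and 2.68. ITGB1 and ITGB7, the partner subunits, had log2 changes of 0.21 and -0.22 (adjusted p = 0.520 and 0.775). None of the 10 tested integrin rows was called. The closest were the collagen-binding subunit ITGA10 at -0.66 (adjusted p = 0.0594) and the laminin-binding ITGA6 at -0.82 (adjusted p = 0.0717).

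Several called genes that fell in A4 encode enzymes that build or modify matrix, a grouping made after their values were seen and not tested as a group. XYLT1 starts glycosaminoglycan chains on proteoglycans and was at 19.3, 5.56 and 6.95 in A4, against 26.9, 21.3 and 21.1 in B1B (log2 change -1.23, limma adjusted p = 0.0433). CHST3, a chondroitin sulfotransferase, had a log2 change of -1.21, and PAPSS2, which makes the sulfate donor, of -0.79 (adjusted p = 0.0433 and 0.0373). PLOD2, a collagen lysyl hydroxylase, was at 90.5, 97.8 and 99.9 in A4, against 166, 214 and 221 in B1B, with no overlap (log2 change -1.04, adjusted p = 0.0272). LOXL3, a lysyl oxidase-like enzyme, had -1.20 (adjusted p = 0.0390).

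PENK, the precursor of enkephalin peptides, had the largest fall among called genes with a symbol and a level of at least 20 in the higher group. It was at 22.98, 72.2 and 15.4 in A4, against 71.04, 1357 and 335 in B1B (log2 change -3.39, SE 0.515, limma adjusted p = 0.0270). The A4 library of pig 5 was slightly above the B1B library of pig 2, so the ranges touched, but within each pig A4 was lower. It was the 1 call among 10 tested rows for neuropeptides and guidance factors. In the same list, NTN1, the guidance factor netrin 1, stood at 265, 293 and 458 in A4, against 110.5, 30.4 and 182 in B1B, and SEMA3A at 37.97, 29.5 and 17.7 in A4, against 25.9, 0.273 and 0.456 in B1B. They did not pass (log2 changes 1.94 and 2.93, adjusted p = 0.0817 and 0.0712).

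Among chondrocyte regulators and secreted cartilage factors, 2 of 18 tested rows fell and 0 rose (median -0.62). GDF5, a ligand of BMPR1B that marks the developing joint, was at 135, 28.8 and 18.2 in A4, against 219.7, 208 and 103 in B1B (log2 change -1.98, limma adjusted p = 0.0390). Pig 2 was the highest of each group, and its A4 library lay above the B1B library of pig 6. WWP2, a ubiquitin ligase abundant in cartilage, had -0.92 (adjusted p = 0.0459). The difference in SOX9, whose values are given above, was -0.53 and did not pass (adjusted p = 0.119).

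Ligands and modulators of BMP and TGF-beta signalling differed in both directions, with 2 of 27 tested rows higher in A4, 1 lower, which was GDF5, and a median of 0.00. BMP4 was at 31.3, 31.1 and 37.03 in A4, against 9.26, 7.99 and 10.2 in B1B (log2 change 1.75, SE 0.209, limma adjusted p = 0.0140). Its libraries were tight in both groups and far apart. LTBP1, which tethers latent TGF-beta in the matrix, had 44.9, 43.7 and 48.3 in A4, against 25.4, 5.38 and 12.998 in B1B (log2 change 1.81, adjusted p = 0.0398). The BMP antagonist GREM1 was at 892, 1766 and 870.0 in A4, against 1098, 6449 and 3185 in B1B, and did not pass (-1.35, adjusted p = 0.0607). Receptors did not pass, with log2 changes of 0.18 for BMPR1A, 0.44 for BMPR2, -0.45 for TGFBR1 and 0.04 for TGFBR2 (adjusted p 0.658, 0.150, 0.163 and 0.930). The receptors TGFBR3 and ACVR1, at 0.70 and -0.35, did not pass either. In A4, BMPR2 and TGFBR3 were higher and TGFBR1 and ACVR1 lower in 3 of 3 pigs, whereas BMPR1A and TGFBR2 differed in direction between pigs.

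WIF1, a secreted WNT inhibitor, was the 1 call among 12 tested rows of the WNT list, at 29.2, 32.00 and 47.5 in A4, against 10.8, 0.989 and 1.95 in B1B (log2 change 3.15, limma adjusted p = 0.0270). WNT1, a WNT ligand, was among the named genes by size and stood at 134, 115 and 32.2 in A4, against 3.38, 3.59 and 7.25 in B1B (log2 change 3.87, adjusted p = 0.0214). Other secreted WNT inhibitors pointed both ways without passing, with 1.03 for SFRP1, -1.42 for FRZB and -1.68 for SFRP5 (adjusted p = 0.0901, 0.0812 and 0.104). The intracellular target gene AXIN2 had 0.09 (adjusted p = 0.913).

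Proteases and their inhibitors had 3 of 18 tested rows higher in A4 and 0 lower, with a median of 1.05. CTSK, cathepsin K, a collagen-degrading cysteine protease, was at 293, 440.1 and 308 in A4, against 122, 132 and 109 in B1B (log2 change 1.49, SE 0.141, limma adjusted p = 0.00840), and the groups were well apart. PLAU, urokinase, had 43.97, 24.9 and 16.1 in A4, against 26.9, 2.77 and 2.38 in B1B (log2 change 1.94, adjusted p = 0.0373), and the B1B library of pig 2 was above 2 A4 libraries. One of 2 rows of ADAMTS1, a proteoglycan-cleaving metalloprotease, passed, at 34.5, 15.5 and 22.7 in A4, against 2.25, 0.00110 and 1.95 in B1B (log2 change 3.50, adjusted p = 0.0140). The other had 2.20 (adjusted p = 0.102). The collagenases did not pass, with 1.17 for MMP1 and 1.35 for MMP13 (adjusted p = 0.223 and 0.125). CEMIP, a hyaluronan-degrading protein named by the size of its change, was at 42.5, 136 and 123 in A4, against 5.58, 10.7 and 14.7 in B1B (log2 change 3.09, adjusted p = 0.0214).

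Inflammatory mediators had 4 of 20 tested rows higher in A4 and 0 lower (median 0.62). TIFA, an adaptor of NF-kappaB signalling, was at 15.97, 29.1 and 20.9 in A4, against 0.143, 0.0233 and 0.00108 in B1B, where it was below 1 in every library (log2 change 4.41, limma adjusted p = 0.0270). PTGS2, which makes prostaglandin precursors, had 154, 69.05 and 32.2 in A4, against 81.1, 12.9 and 7.92 in B1B (log2 change 1.71, adjusted p = 0.0283). SOD2, the mitochondrial superoxide dismutase, had 4886, 6228 and 7479.9 in A4, against 3659, 1691 and 1864 in B1B (log2 change 1.43, adjusted p = 0.0407). Every A4 library of SOD2 was above every B1B library, whereas for PTGS2 the B1B library of pig 2 was above 2 A4 libraries. The cytokine gene IL6 has 2 rows. The one spelled IL-6 was at 36.4, 6.71 and 18.1 in A4, against 2.50, 1.33 and 0.547 in B1B (log2 change 2.92, adjusted p = 0.0398), and the one spelled IL6 had 0.18 (adjusted p = 0.950), so the level of this cytokine is uncertain. The chemokine CXCL8 was at 399, 28.95 and 2.38 in A4, against 5.43, 0.00110 and 0.00108 in B1B, and did not pass (adjusted p = 0.0528). Its highest value fell in the A4 library of pig 2, described below.

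Of 16 tested rows for metallothioneins and antioxidant genes, 3 rose in A4 and 0 fell (median 0.47). FTL, the light chain of the iron store ferritin, was at 6796, 9614 and 12171 in A4, against 2807, 3265 and 3232 in B1B (log2 change 1.58, SE 0.206, limma adjusted p = 0.0179). HMOX1, heme oxygenase 1, which releases iron from heme, had 281, 615 and 716 in A4, against 95.9, 209 and 126 in B1B (log2 change 1.86, adjusted p = 0.0221). Both genes separated the groups without overlap. SEPP1, selenoprotein P, had the largest change of all called genes with a symbol, 4.92 (adjusted p = 0.0383), with 109, 82.5 and 26.4 in A4, against 0.492, 0.00110 and 5.11 in B1B. Its A4 values fell into the same order of pigs as the macrophage markers below, 2 above 5 above 6, and their part in its change was not tested. The metallothionein MT1X had -0.72 (adjusted p = 0.0555).

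Further genes by size of change included MARCKS, an actin-regulating substrate of protein kinase C, at 138, 359 and 461 in A4, against 13.1, 20.5 and 9.55 in B1B (log2 change 4.28, limma adjusted p = 0.0140). RGS2, a regulator of G protein signalling, was at 29.2, 48.8 and 57.6 in A4, against 2.18, 5.63 and 11.7 in B1B (log2 change 2.79, adjusted p = 0.00840). Both genes had a gap between the groups. KCNE4, a potassium channel subunit, changed by 3.79, and SULT1A3, a sulfotransferase with near-identical relatives, by 3.46 (adjusted p = 0.0212 and 0.0214). CH242-176I15.2, which has no gene name, was at 6.93, 46.9 and 19.6 in A4 and listed at the lowest value in each B1B library (adjusted p = 0.0140).

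Among the largest falls by the same rule, NREP had a log2 change of -1.89 (limma adjusted p = 0.0469). TSC22D1, a leucine zipper protein of TGF-beta responses, was at 1258, 587 and 556 in A4, against 2033, 2371 and 1870.1 in B1B (log2 change -1.48, adjusted p = 0.0373). MALL changed by -1.61, SUSD5 by -1.57, MELTF, an iron-binding melanotransferrin, by -1.52, and CU633166.1 by -1.52 (adjusted p = 0.0407, 0.0202, 0.0398 and 0.0305). CSPG4, the chondroitin sulfate proteoglycan NG2 known from pericytes, was at 729, 297 and 523 in A4, against 1097, 1008 and 1388 in B1B (log2 change -1.25, adjusted p = 0.0373), the 1 call among 9 tested rows of the pericyte list. RGS5, ACTA2 and MYH11, the defining markers of those cells, did not pass the filter on low values.

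In the fibroblast and synovial lining list 1 of 16 tested rows rose in A4 and 0 fell. The call was POSTN, periostin, at 6.22, 20.4 and 44.7 in A4, against 2.76, 0.276 and 3.98 in B1B (log2 change 2.74, limma adjusted p = 0.0470). COL1A2, a type I collagen chain, was at 59.8, 543 and 533 in A4, against 15.1, 10.1 and 134 in B1B, and did not pass (3.17, adjusted p = 0.0681). The skeletal progenitor list had 1 call among 12 tested rows, CTSK. GLI1, a hedgehog target, had 0.15, and the surface proteins THY1, ENG and NT5E had 0.19, 1.44 and 0.39 (adjusted p = 0.684, 0.728, 0.0569 and 0.373).

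Genes of the hypertrophic and mineralizing zone gave 2 falls, both rows of SPARC, and 1 rise among 14 tested rows. The rise was DLX3, a homeobox factor of skeletal and skin development, at 7.20, 15.7 and 22.1 in A4, against 1.93, 3.74 and 4.47 in B1B (log2 change 1.79, limma adjusted p = 0.0202). RUNX2, a regulator of hypertrophy, was at 182, 67.5 and 25.9 in A4, against 86.2, 67.5 and 63.5 in B1B (log2 change -0.06, adjusted p = 0.959). COL10A1, the collagen of hypertrophic cartilage, differed widely between animals in A4, at 175, 27.1 and 1.25 in A4, against 3.60, 3.26 and 0.891 in B1B (log2 change 2.74, adjusted p = 0.139).

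Immediate early genes, which respond within minutes to stress and handling, had 2 of 25 tested rows higher in A4, FOSL2 at 0.86 and RGS2, and 0 lower (adjusted p = 0.0312 for FOSL2). FOS and JUN had -0.48 and -0.81 (adjusted p = 0.296 and 0.284). Their list median, -0.15, was above 0 under the other scalings, at 0.30 with values as deposited and 0.01 with a common total. Relative to the median of all tested genes it was -0.13 on the scale used here, 0.08 as deposited and -0.11 with a common total. B2M, the light chain of class I molecules, was the 1 call among 8 rows of the interferon and class I list, at 159, 139.9 and 193 in A4, against 81.3, 88.3 and 96.8 in B1B (log2 change 0.87, adjusted p = 0.0270). No call was made by limma among 22 rows of glycolysis and hypoxia, of which 3 had an unadjusted p under 0.05, among 8 rows of S phase, with 1, or among 10 rows of mitosis, with 0.

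A4 and B1B differ in both sort proteins, and the DP and DN libraries of the same pigs allow the difference to be divided. The ITGA4 component is the mean of A4 and DP minus the mean of B1B and DN, and the BMPR1B component the mean of B1B and DP minus the mean of A4 and DN, so that A4 minus B1B is the first minus the second. These components use the libraries of the main comparison and are not separate evidence of it. BMPR1B-positive against BMPR1B-negative cells gave 274 calls (3.02%), 127 higher and 147 lower. For ITGA4 the count was 0 (0.0%) by limma, with 1100 genes at an unadjusted p under 0.05. No gene was called for the interaction of both proteins, with 328 at an unadjusted p under 0.05. The counts turned round with values as deposited, which gave 3835 calls for ITGA4, 3817 higher and 18 lower, and 0 for BMPR1B. That scale keeps the mitochondrial and structural shares, and nearly all of its ITGA4 calls went the same way. Without pig as a block both components had 0 calls by limma, with 498 genes at an unadjusted p under 0.05 for ITGA4 and 882 for BMPR1B, and without pig 5 or without pig 6 BMPR1B also had 0.

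Of the 108 genes higher in A4, the BMPR1B component was larger in size than the ITGA4 component for 94, and 84 were also called for BMPR1B. The ITGA4 component was above 0 for 107. Median values were 1.93 for A4 minus B1B, 0.62 for ITGA4 and -1.22 for BMPR1B. Of the 76 genes lower in A4, the BMPR1B component was larger for 54, and 48 were called for it, with medians of -1.13, -0.41 and 0.72. Over all genes tested the median size was 0.195 for BMPR1B and 0.171 for ITGA4. How often the BMPR1B component was the larger one over all genes is not given here. The called genes were also chosen by the difference of the 2 components, so these counts are a description.

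Single genes show how the division runs. For PRG4 the levels in DP were 1197, 205 and 715 and in DN 4194, 1764 and 1974, so that DN stood near A4 and DP between A4 and B1B in pigs 5 and 6, with components of 1.38 for ITGA4 and -3.50 for BMPR1B (limma adjusted p = 0.0223 for BMPR1B). PENK was at 72.9, 971 and 267 in DP and 21.9, 199 and 26.2 in DN, with components of -0.48 and 2.91 (adjusted p = 0.0167). Both genes were called for BMPR1B, in opposite directions. COL2A1 was intermediate in both, at 14289, 34171 and 37501 in DP and 12713, 23260.0 and 20925 in DN, with components of -0.76 and 1.28 (adjusted p = 0.0315). VCAM1 was at 3.61, 0.202 and 2.68 in DP and 1.74, 3.09 and 4.38 in DN, below every A4 library and, but for the DP library of pig 5, above every B1B library. Its components were 1.72 and -2.24 (limma adjusted p = 0.0304 for BMPR1B). That p is also only a description, since VCAM1 was tested only because it was high in A4. BMP4 had the components 1.004 and -0.75 (adjusted p = 0.0372), and MATN1 -1.28 and 0.73 (adjusted p = 0.100), 2 genes with the ITGA4 component as the larger one. No ITGA4 component passed, so neither is a call for ITGA4.

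**Figure D3:**
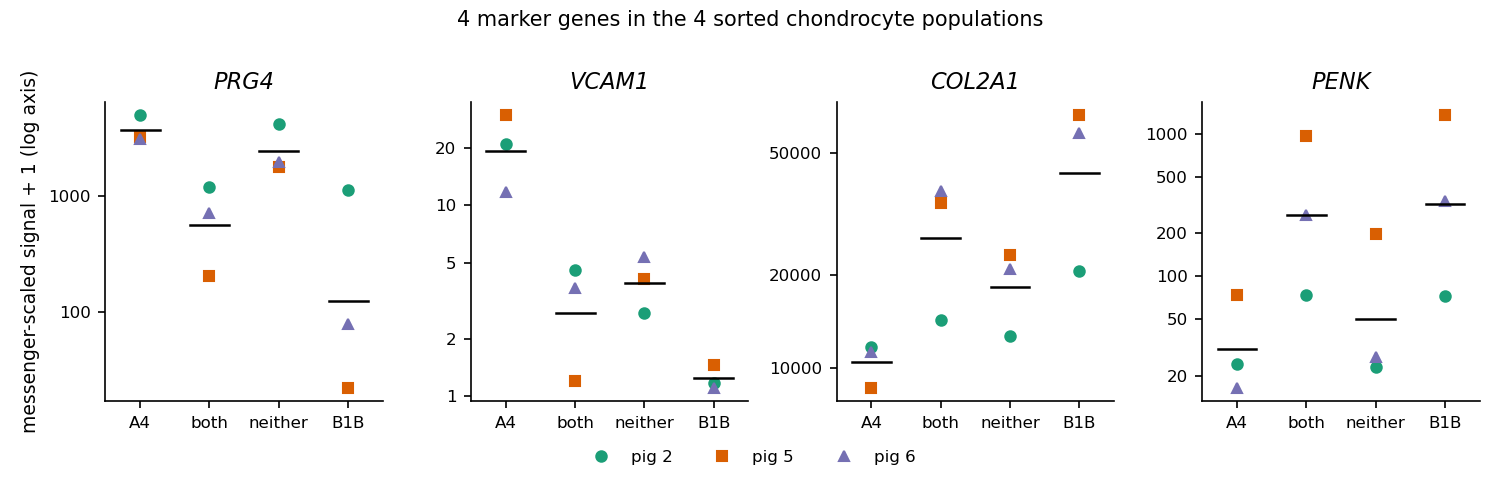
Messenger-scaled signal + 1 (log axis, scaled for each gene) of PRG4, VCAM1, COL2A1 and PENK in A4, in cells with both proteins (DP), with neither (DN) and in B1B, with 1 point per pig and a bar at the mean of the log values. Cells with neither protein lie beside A4 for PRG4, cells with both lie beside B1B for PENK, and COL2A1 and VCAM1 are graded between the ends.

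**Figure D4:**
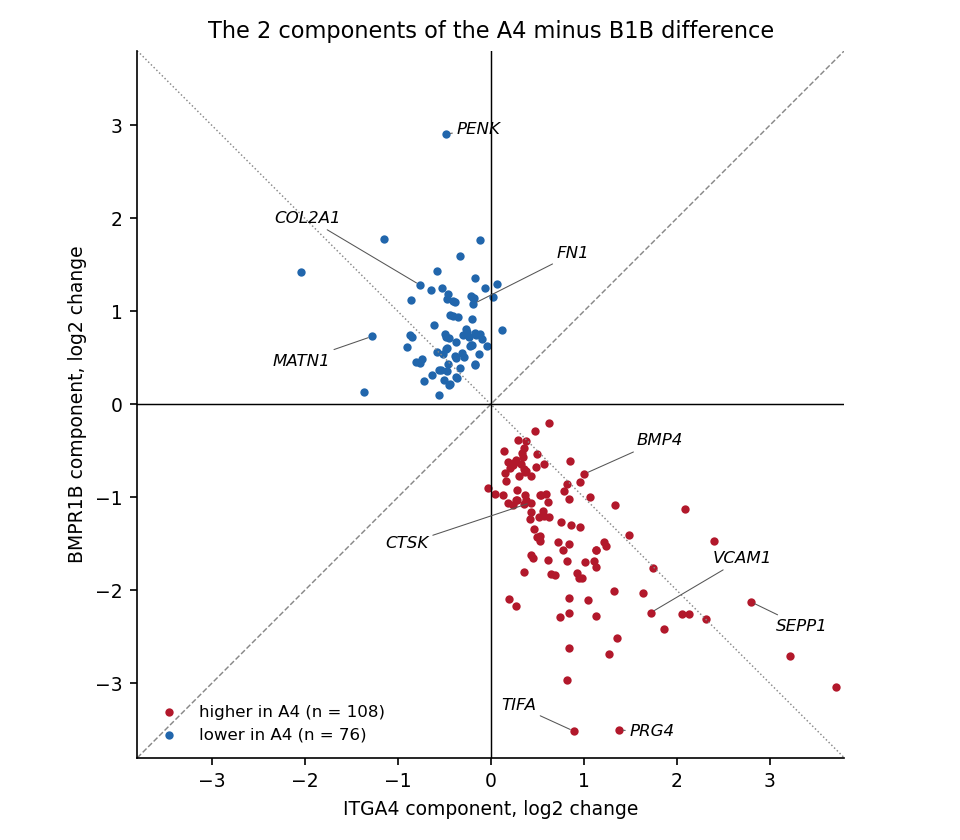
ITGA4 component (horizontal axis) and BMPR1B component (vertical axis) of the 184 called genes, both as log2 changes, with equal axes and lines at equal size of both. Most points lie in 2 quadrants, 107 of the 108 genes higher and 73 of the 76 lower in A4, which the choice of called genes favours. More of them lie nearer the vertical than the horizontal axis, 94 of 108 and 54 of 76, a share not given here for all genes tested.

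Macrophage transcripts were uneven among the A4 libraries. C1QC, a chain of complement C1q made by macrophages, was at 94.4, 11.6 and 0.872 in the A4 libraries of pigs 2, 5 and 6, and TYROBP, a myeloid signalling adaptor, at 35.4, 4.46 and the lowest value. Both were listed at the lowest value in all 3 B1B libraries. CD68, a lysosomal protein of macrophages, was at 100.4, 31.3 and 3.87 in A4, against 2.71, 0.00110 and 3.07 in B1B (log2 change 3.35, limma adjusted p = 0.121). Of the 33 macrophage rows in the table, 19, 8 and 3 were above 5 in the A4 libraries of pigs 2, 5 and 6, against 3, 3 and 3 in the B1B libraries, and of the 13 rows of defining markers, 1, 2 and 5 were at the lowest value in A4, against 9, 10 and 10 in B1B. The order of pigs in A4 was the same for each of these measures, but not for every marker. SIGLEC1, a macrophage lectin, was at 4.15, 6.79 and 4.67 in A4, against 0.125, 0.767 and 1.17 in B1B.

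The summed level of the list was 834, 361 and 384 in A4, against 344, 414 and 408 in B1B, and CD14, FOLR2 and LYZ, which were present in all chondrocyte libraries, made up most of it in 5 of the 6. Without these 3, a choice made after their values were seen, the sum was 497, 77.5 and 17.1 in A4, against 9.58, 7.76 and 13.4 in B1B. The A4 library of pig 6 was thus near the B1B range, and that of pig 2 far above it. For the pig cartilage, a gate against blood cells is not described in the sources used here. None of the 4 macrophage rows tested was called.

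In pig 6, 3 defining macrophage rows were above 1 in A4 and 3 in B1B, and 5 were at the lowest value in A4 and 10 in B1B. There PRG4 was 3116 in A4 and 77.6 in B1B, VCAM1 was 10.7 in A4 and 0.110 in B1B, and COL2A1 was 11242 in A4 and 58008 in B1B. SEPP1 was 26.4 in A4 and 5.11 in B1B. Without the A4 library of pig 2 the fit gave 259 calls, which included 137 of the 184. Of 53 named genes that were called, 48 were called without that library, 2 without the A4 library of pig 5 and 8 without that of pig 6. The part of macrophages in the called genes was not tested.

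**Figure D5:**
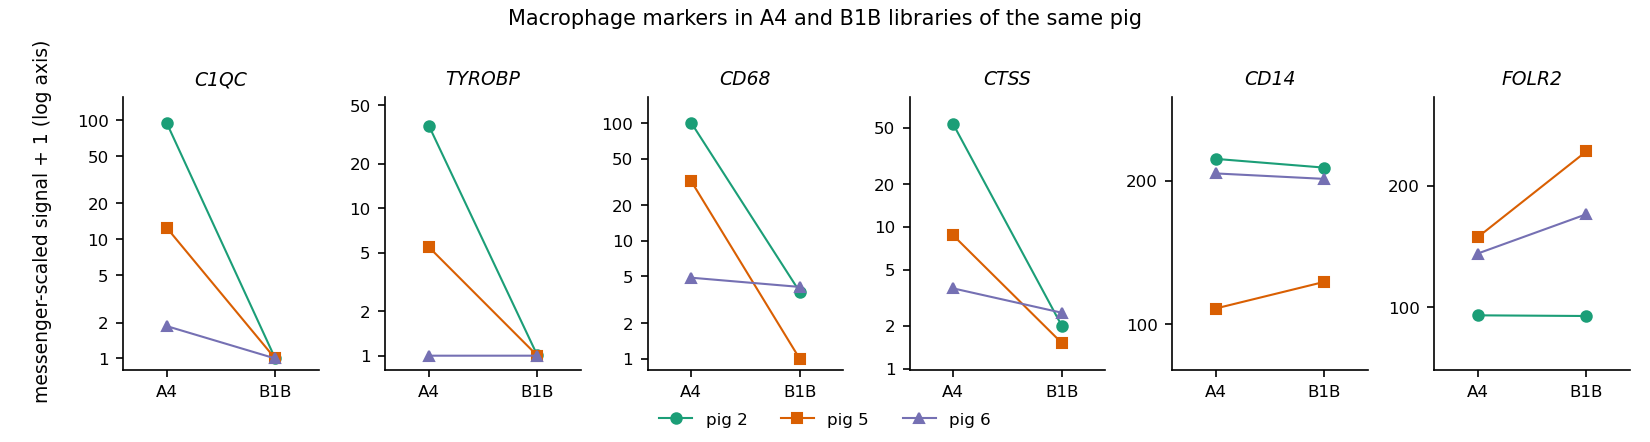
Messenger-scaled signal + 1 (log axis, scaled for each gene) of 6 macrophage-list genes in the A4 (left) and B1B (right) library of each pig. C1QC, TYROBP, CD68 and CTSS were highest in the A4 library of pig 2 and near the floor or the B1B level in that of pig 6, whereas CD14 and FOLR2 were present in all 6 libraries.

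Marker lists of other cell types were summed in the same way. The neutrophil and mast cell list was 659, 783 and 1728 in A4, against 335, 199.9 and 282 in B1B, without overlap and higher in A4 in 3 of 3 pigs. Most of it was LCN2, lipocalin 2, an iron-siderophore binding protein, at 454, 783 and 1723 in A4, against 322, 199.7 and 280.4 in B1B, which was the 1 row of the list tested and did not pass (log2 change 1.69, limma adjusted p = 0.0765). Without LCN2, a choice made after its values were seen, the sum was 204.97, 0.401 and 5.11 in A4, against 13.3, 0.199 and 1.67 in B1B. The remainder in the A4 library of pig 2 was mainly S100A8, S100A9 and S100A12, calcium-binding proteins of neutrophils and monocytes, at 76.99, 45.7 and 78.9.

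The summed endothelial list was 249, 39.4 and 88.8 in A4, against 35.4, 48.8 and 52.3 in B1B, again highest in the A4 library of pig 2, and 0 of its 7 tested rows was called by limma (2 had an unadjusted p under 0.05). Of these 7 rows, 6 had a log2 change above 0. PECAM1, the endothelial adhesion protein, was at 13.1, 3.31 and 4.49 in A4, against 1.12, 0.754 and 1.22 in B1B (log2 change 1.78, limma adjusted p = 0.123). S1PR1, the row with the smallest p, was highest in pig 6, at 12.6, 3.96 and 14.3 in A4, against 0.00637, 0.00110 and 1.36 in B1B (log2 change 2.92, limma adjusted p = 0.0679). The median of this list, 1.78, fell to 0.43 with values as deposited. Erythroid rows summed to at most 4.16 in A4 and 0.334 in B1B. The part of these cells in the called genes was not tested.

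Some called genes of A4 encode proteins of the lysosome, again grouped after their values were seen and not tested as a group. LGMN, the protease legumain, was at 72.01, 43.3 and 44.5 in A4, against 7.13, 11.7 and 18.4 in B1B (log2 change 2.06, limma adjusted p = 0.0358). CTSH, a cathepsin, had 1.68, IFI30, a thiol reductase, 1.67, ASAH1, acid ceramidase, 1.35, and SCARB2, a membrane protein, 1.30 (adjusted p = 0.0433, 0.0272, 0.0265 and 0.0386). Macrophages also express such genes, and the A4 values of LGMN and CTSH were highest in pig 2. In pig 6 LGMN was at 44.5 in A4 and 18.4 in B1B, and CTSH at 30.8 in A4 and 13.5 in B1B. The part of macrophages in these genes was not tested.

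Of the called genes, 20 of the 108 higher and 14 of the 76 lower in A4 had no symbol and are given by identifier only. The largest rise among them was ENSSSCG00000021015, at 189, 481 and 293 in A4, against 0.00637, 0.00110 and 20.3 in B1B, and the largest fall ENSSSCG00000024449, at 0.00417, 0.000681 and 1.45 in A4, against 11.7, 12.95 and 17.5 in B1B (limma adjusted p = 0.0208 and 0.00840). ENSSSCG00000025066 and ENSSSCG00000026265 had the same values in every library, so these 2 rows count 1 signal.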

How the data were processed

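RNA of 15 sorted pig libraries was measured by sequencing. The authors deposited 1 table of normalized signal for 25322 Ensembl genes, and per the sources used here they prepared NuGen Ovation SoLo libraries, used STAR for alignment of paired reads to an Ensembl pig genome, and Partek for quantification. Neither the tool versions nor the way of normalizing is stated in those sources. All libraries sum to about the same total, the lowest value is 0.0001, and the depth is unknown, so no counting error could be given.

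From the deposited signal, 1122 structural and 37 mitochondrially encoded rows were left out. The other 24163 rows, here called messenger RNA, were put on a common scale by dividing each library by its median ratio, over 11303 genes, to the genes' geometric means, and brought to a mean total of 1000000 in the 12 chondrocyte libraries. Genes above 5 in at least 3 of these libraries entered a limma fit (version 3.58.1, R 4.3.3) of log2(signal + 1) on population and pig, with the prior variance following the level, and Benjamini-Hochberg adjustment over 9075 genes at 0.05. The block follows from the labels, since each pig gave all 4 chondrocyte populations. After subtraction of each population's mean, the best correlated partner was of the same pig for 12 of 12 libraries (0.139 to 0.443 within pigs, median -0.230 between pigs). The subtraction itself lowers the correlations between pigs of the same population, so these values are a description and no test of the block. Tables and plots were made with pandas 2.3.3 and matplotlib 3.10.9.

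Named genes were ITGA4, BMPR1B, PRG4, VCAM1, COL2A1 and PENK, then the 15 largest called changes each way among genes with a symbol, the same direction in 3 of 3 pigs and a mean of at least 20 in the higher group, and called members of 28 gene lists, up to 6 a list, or else the 2 with the smallest p. Other genes were named for context after their values were seen. Some genes that met the rule are not reported here. The populations, rule and lists were chosen with earlier results of these data known. The deposited table held a symbol for 13674 genes, a reference list supplied 2384 more, and 9264 had none. Alternatives changed the scaling, pseudocount, filter, block, prior, libraries and a macrophage covariate. Protein data were not used in the tests. The CD146+ libraries were in no fit, but the 11303 genes and geometric means behind the scaling were taken over all 15 libraries.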

Additional observations from a re-analysis of the deposited data

Results flagged for a closer look

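Mitochondrially encoded RNA, which the comparison left out, took a larger share of the signal in A4 than in B1B in every pig. The share was 18.4% in A4 and 2.41% in B1B of pig 2, 35.1% in A4 and 11.3% in B1B of pig 5, and 22.5% in A4 and 16.5% in B1B of pig 6. All 13 mitochondrial protein-coding rows, taken as deposited, were higher in A4 in 3 of 3 pigs. How many of all deposited rows were so is not given here. The mitochondrial shares depend on the structural RNA of each library, which was 77.5%, 43.9% and 60.7% in A4 and 95.2%, 69.5% and 68.7% in B1B. The difference was not tested.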

How the results depend on the processing

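The 184 genes called in A4 against B1B kept their direction under each alternative that tested them, which their selection favours, but the count did not hold under most. It was 31 with values as deposited, 116 with messenger rows to a common total, 33 with no filter and 0 with the 6 libraries alone and a replicate block. Pseudocounts of 0.25 and 5 gave 182 and 186, a filter at 20 gave 227, a prior without a trend 127 and the macrophage covariate 258. That covariate, the summed list, is mostly CD14, FOLR2 and LYZ in every chondrocyte library but the A4 library of pig 2. There it was 834, and 497 without these 3 genes, against 280 to 440 for the whole list in the other chondrocyte libraries. It thus mainly sets that library apart and cannot measure the part of macrophages, which was not tested. Leaving out 1 pig or 1 A4 or B1B library gave 0 to 259, where a fit with 1 library fewer assumes that the remaining ones vary like the other populations.

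Without the replicate block 9 genes were called for A4 against B1B, 8 higher and 1 lower, and 0 for the BMPR1B component. Of the 53 called named genes, 6 were still called without the block.

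The BMPR1B component had 0 calls with values as deposited and 59 with no filter, against 274, and 0 to 385 with libraries left out. The ITGA4 component had 3835 calls with values as deposited, 3817 higher and 18 lower, on a scale that keeps the mitochondrial and structural shares. It had 2 with a pseudocount of 5, 1 with no filter, 2 with a prior without a trend and 0 to 2 with libraries left out, against 0.

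Genes that were not called and changed sign were PGAM1 (0.13), FOLR2 (0.12), LYZ (0.13), CD79A (0.33) and CD14 (0.44) with values as deposited, CD79A (0.047) and CD14 (0.14) with a common total, and CD79A (0.18) with the macrophage covariate. With libraries left out, the log2 difference ran between -0.73 and 0.30 for CD79A, -0.082 and 0.072 for CD14, -0.88 and 0.61 for ACTA1, and -0.42 and 1.30 for CEBPA. The cause of these changes was not tested. Low genes are limited by an unknown depth, and 3 pigs limit every comparison.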

Other observations

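Several called genes outside the lists add to the description of A4 cells. TLR4, a receptor for bacterial lipopolysaccharide, was at 29.4, 43.4 and 89.4 in A4, against 3.64, 7.11 and 18.2 in B1B (log2 change 2.47, limma adjusted p = 0.0140), with no overlap. SERPING1, the inhibitor of complement C1, was at 26.9, 52.1 and 105 in A4, against 11.1, 15.2 and 33.2 in B1B (log2 change 1.52, limma adjusted p = 0.0326), and here the highest B1B library was above the lowest A4 library. CST3, the cathepsin inhibitor cystatin C, had 806, 490.2 and 524 in A4, against 253, 135 and 238 in B1B (log2 change 1.55, limma adjusted p = 0.0140). AHR, a ligand-activated transcription factor, changed by 1.46 and SGK1, a serum- and glucocorticoid-induced kinase, by 1.41 (limma adjusted p = 0.0373 and 0.0214).

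Among called genes lower in A4, the actin-binding tropomyosins TPM1 and TPM2 changed by -1.03 and -1.13 (limma adjusted p = 0.0312 and 0.0373). STC2, a secreted glycoprotein, changed by -0.87, and APOD, a lipocalin, was at 133, 83.3 and 82.9 in A4, against 209, 208 and 326 in B1B (log2 change -1.31, limma adjusted p = 0.0373). These genes were picked after their values were seen.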
